A study of Mus musculus with 3 samples.

Results

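The genes of the ATR-CHK1 and ATM-CHK2 checkpoints were examined in RAW 264.7 cells under replication stress. The set was given as 10 symbols, Atr, Atrip, Atm, Chek1, Chek2, Claspn, Timeless, Tipin, Topbp1 and Wee1, and its members were the rows of the deposited gene table that carry those symbols. Of the 10, 9 matched 1 row each among 46078 genes. The spelling Claspn has no row, and claspin is listed under its mouse symbol Clspn, which is described here beside the members but is not counted among them. A mean of at least 1 FPKM (fragments per kilobase of exon, scaled to the summed count of the library) over the libraries was reached by 8 members and by 10849 genes in all. Atrip was the member below it.

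RAW 264.7 is a mouse macrophage line from a tumour induced by Abelson murine leukemia virus, and all libraries came from this 1 line at passages 10 to 15, in medium with 10% serum. The libraries were made from cells given 0.5 mM hydroxyurea (HU) together with gold nanocages, which are hollow gold particles, from cells given 0.5 mM HU, and from control cells. RNA was taken after 12 hours. Each group is 1 library, so no difference below has a replicate check. Their summed counts were 18644333 in HU plus gold nanocages, 20057329 in HU and 14990564 in control. Of 10 macrophage markers, 8 reached a mean of 1 FPKM, among them Lyz2 at 1283, 1360 and 1452 FPKM in the same order, while Mrc1 had no read in any library. The 5 markers each of fibroblasts, of lymphocytes, of granulocytes and mast cells, and of epithelium and endothelium summed to at most 0.30 FPKM per list in every library.

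The checkpoint works as a relay. When a replication fork stalls, RPA coats the exposed single-stranded DNA and ATRIP brings the kinase ATR to it. TOPBP1 activates ATR there, and claspin together with the fork protection complex of TIMELESS and TIPIN lets ATR phosphorylate the effector kinase CHK1. CHK1 restrains the CDC25 phosphatases, while WEE1 phosphorylates CDK1 directly, and both acts delay mitosis. ATM, which responds to double-strand breaks, acts through the effector kinase CHK2 in a parallel arm that leads to p53. HU inhibits ribonucleotide reductase and so starves forks of nucleotides. These kinases are switched on by phosphorylation, which RNA levels do not measure.

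As a description of sequence, letters known from promoters of cell cycle genes were looked for in the start regions of the members. Whether they bear on the ratios below was not tested. RefSeq start windows of GRCm38.p6, from 250 bases before to 50 after each annotated start, were at hand for Atr, Atrip, Topbp1, Timeless, Chek1, Atm and Chek2 and for Clspn. The letters TTTCGCGC, TTTGGCGC, TTTCCCGC and TTTGCCGC, forms of the E2F site, were searched on both strands. At least 1 of them was in 3 of these 8 windows, those of Chek2, Topbp1 and Clspn, and in 2.26% of all 32851 windows. The shortest informative stretches are shown, each on the strand of its gene, with E2F letters, the CHR letters TTCGAA and the letters CCAAT in capitals where they occur on either strand. The Chek2 stretch covers the 180 bases before the start, and the others are 30 bases around 1 match.
Chek2, chr5:110839803-110839982, + strand: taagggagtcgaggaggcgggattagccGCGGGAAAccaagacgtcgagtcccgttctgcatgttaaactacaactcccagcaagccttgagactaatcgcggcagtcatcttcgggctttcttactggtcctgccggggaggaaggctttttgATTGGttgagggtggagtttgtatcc
Topbp1, chr9:103305187-103305216, + strand: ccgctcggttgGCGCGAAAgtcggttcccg
Clspn, chr4:126556990-126557019, + strand: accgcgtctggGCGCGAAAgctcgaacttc
Atr, chr9:95857371-95857400, + strand: taaatatgccaTTCGAAcatagtgaaatat

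All of the E2F matches read as the reverse strand. Their first base lay 152 bases before the start in Chek2, 129 bases before it in Topbp1 and 22 after it in Clspn. Topbp1 and Clspn held the same letters, TTTCGCGC, which 0.323% of all windows hold, whereas Chek2 held TTTCCCGC, found in 1.07%. The CHR letters searched were TTTGAA and TTCGAA, and of the 8 windows only that of Atr held one, 215 bases before its start, beside 19.2% of all windows. CCAAT was in the windows of Atm, Atrip, Chek2 and Clspn, beside 37.4% of all windows. The windows were rich in CpG, with 21 to 38 CpG dinucleotides in all but Timeless, which had 5. The median over all windows was 7. The Timeless window, chr10:128237816-128238115, does not hold the GENCODE start of that gene at chr10:128232065. The Chek1 window does not hold its GENCODE start either. What these windows lack therefore does not describe the GENCODE starts of Timeless and Chek1. Each E2F form searched holds a CpG, and the shares over all windows were not matched for CpG content. A match is a description of letters, and it says nothing of what binds there.

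In the genome 6 of the 9 matched members lie on chromosome 9, where 5.63% of the 10849 genes lie. On mm10 these are Chek1 (chr9:36708482-36727065), Atm (chr9:53439149-53536740), Tipin (chr9:64281581-64305424), Atr (chr9:95857597-95951781), Topbp1 (chr9:103305215-103350428) and Atrip (chr9:109057933-109074124), spread over the chromosome. Chek2 lies at chr5:110839979-110874145, Wee1 at chr7:110122046-110143286, Timeless at chr10:128232065-128252941 and Clspn at chr4:126556935-126593903. All are annotated as protein-coding. In the gene ontology terms of the deposited table, 8 of the 9 carry the cellular response to DNA damage, which 3.29% of the 10849 genes carry, and Wee1 does not. DNA damage checkpoint is given to 5 (Atr, Tipin, Chek1, Atm and Chek2) and to 0.221% of the 10849 genes. The same table calls 5 members protein kinases (Atr, Chek1, Wee1, Atm and Chek2).

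The members spanned a wide range of levels per length. Tipin was the most abundant in every library, at 194 FPKM in HU plus gold nanocages, 197 in HU and 173 in control, and in control it lay above 97.5% of the 10849 genes. Atr, the apical kinase, was low at 3.05, 2.80 and 3.27 FPKM in the same order of libraries, above 19.4% of genes in control. In control the order below Tipin was Topbp1, Timeless, Wee1, Clspn, Atm, Chek1, Chek2, Atr and Atrip. For neighbours in that order the ratio of FPKM was given an exact 95% counting interval. In control it included 1 for Timeless over Wee1 (1.06, 0.962 to 1.16) and for Wee1 over Clspn (1.03, 0.939 to 1.13), so the order within these pairs was not resolved. Atm over Chek1 was 1.09 (1.01 to 1.17) there. In HU the unresolved neighbours were Atm and Chek1, and Chek1 and Wee1. In HU plus gold nanocages they were Clspn and Timeless, Chek1 and Atm, and Atm and Wee1.

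**Figure D1:**
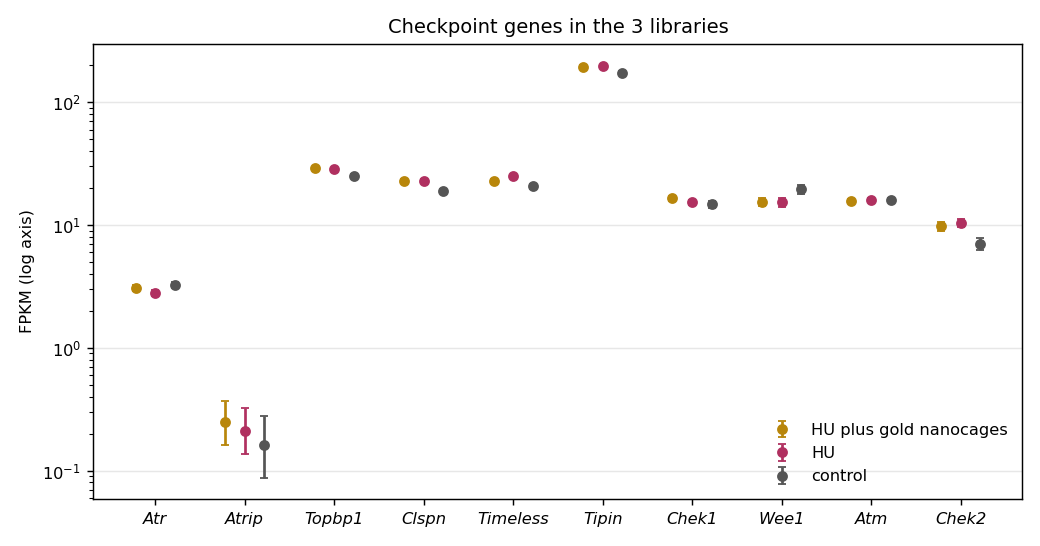
FPKM (log axis) of the 9 matched checkpoint genes and Clspn in the libraries of HU plus gold nanocages, HU and control, 1 point per library, with exact 95% Poisson intervals of the read count as bars. Tipin stands above all others at 173 to 197 FPKM and Atrip below all at 0.16 to 0.25 FPKM, while Atm, Chek1 and Wee1 lie within 14.8 to 19.6 FPKM in all libraries.

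These levels depend on the gene size that the authors divided by. The deposited size of Atr, 23492 bases, is 2.90 times the length of its longest coding transcript in GENCODE M21 (8102 bases), and that of Topbp1 is 2.13 times (11122 against 5224 bases). For Wee1, Tipin and Atrip the deposited sizes, 1941, 1211 and 5338 bases, are only 56.8%, 64.8% and 74.6% of the annotated exonic bases. Divided by the longest coding transcript instead, the depth-scaled reads per kilobase in control were 9.48 for Atr, 16.9 for Atm, 18.0 for Chek1, 9.20 for Chek2 and 11.1 for Wee1. On that scale Wee1 lay below Atm and Chek1, and Atr lay near Chek2. The reads are the deposited counts, not recounted over these transcripts, so that mismatch may itself move the order. No counting interval was computed on this scale. Ratios of 1 gene between libraries do not depend on the size.

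HU against control asked what replication stress does to the RNA of these genes. The effector kinase gene Chek2 was the member with the highest ratio, the fork genes Timeless, Tipin and Topbp1 were slightly higher, the intervals of Atm and Chek1 included 1, and Wee1 and Atr were lower. Ratios are those of CPM (counts scaled to the summed count of the library), with exact 95% intervals that cover counting error only. A gene whose interval lies wholly over 1 is said to be above counting error, and one whose interval lies wholly under 1 below it. No member was 1.5-fold apart in either direction, while 4.53% of the 10849 genes passed 1.5-fold upward and 3.12% downward. Of 8 members 1 was at least 25% higher (Chek2) and 1 at least 20% lower (Wee1), beside 10.5% and 8.83% of all genes. By the counting interval 4 of 8 were above and 2 below, beside 18.7% and 20.1% of all genes. An interval narrows as reads rise, so these counts depend on the depth of each gene, and the genes were not matched for it. The median log2 ratio was 0.11 for the 8 members and -0.01 for all genes. In RNA of a whole culture, fewer cells that express a gene and less RNA per cell cannot be told apart.

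**Figure D2:**
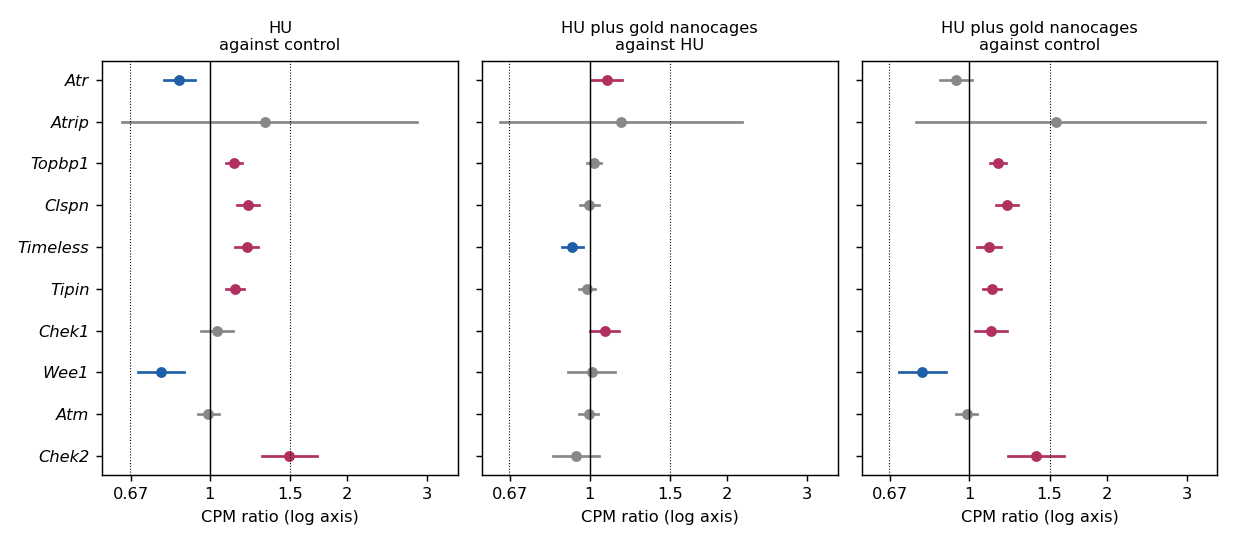
CPM ratios (log axis) of the checkpoint genes in the 3 contrasts, each point 1 gene with its exact 95% counting interval, red above, blue below and grey including 1, with dotted lines at 1.5-fold in both directions. Chek2 at 1.49 and Wee1 at 0.780 are the outermost of the 8 measured members in HU against control, and Atrip, on 36 reads, has the widest interval.

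Chek2 had 628 reads in HU and 314 in control, or 10.4 against 6.98 FPKM. Its ratio was 1.49 (1.30 to 1.72), just under 1.5-fold, and 95.1% of the 10849 genes had a lower ratio. The library of HU plus gold nanocages, with 546 reads and 9.76 FPKM, was also above control, at 1.40-fold (1.21 to 1.61). Both libraries with HU lay above control, but these ratios share the 1 control library. Hscb, a gene for a mitochondrial iron-sulfur cluster chaperone, starts 202 bases from Chek2 on the opposite strand. Its ratio in HU against control was 0.861 (0.706 to 1.05), on 219 and 190 reads, so the interval of Chek2 lay wholly above that of its neighbour.

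Chek1, the effector kinase of the ATR arm, had 1421 reads in HU and 1026 in control, or 15.3 against 14.8 FPKM, a ratio of 1.04 (0.955 to 1.12). The interval includes 1. The balance of the effector kinases within a library does not depend on the scaling of that library. Chek2 over Chek1 in FPKM was 0.592 in HU plus gold nanocages, 0.682 in HU and 0.473 in control. That balance was 1.44 times as high in HU as in control (1.23 to 1.70, exact conditional interval) and 1.251 times as high in HU plus gold nanocages as in control (1.06 to 1.47). In HU plus gold nanocages it was 0.866 times that in HU (0.754 to 0.995). It is 1 of 6 pairs of genes that were compared in this way, with no adjustment of the intervals.

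Wee1 had the lowest ratio of the members in HU against control. It had 594 reads and 15.3 FPKM in HU, and 569 reads and 19.6 FPKM in control. The CPM was 1.28-fold lower in HU (1.14 to 1.44), and 7.61% of genes had a lower ratio. In HU plus gold nanocages Wee1 had 558 reads and 15.4 FPKM, 1.27-fold lower than control (1.13 to 1.43). Wee1 over Chek1 in FPKM was 0.935, 0.998 and 1.32 in HU plus gold nanocages, HU and control. These levels depend on the deposited gene sizes. Per kilobase of the longest coding transcript, Wee1 was at 8.75, 8.66 and 11.1 and Chek1 at 20.1, 18.7 and 18.0 in that order. An antisense gene, 1600010M07Rik, overlaps the Wee1 locus in GENCODE M21 without sharing exonic bases, and it had 85, 84 and 52 reads in the same order. Whether reads of that gene entered the count of Wee1 was not tested, since the strand setting of the counting is not given in the sources used here.

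Atr had 1321 reads in HU and 1151 in control, or 2.80 against 3.27 FPKM, and was 1.17-fold lower in HU (1.08 to 1.26). Atm, the apical kinase of the other arm, had 3301 and 2486 reads, 15.9 against 16.0 FPKM, and a ratio of 0.992 (0.942 to 1.05). Atm over Atr in FPKM was 5.19 in HU plus gold nanocages, 5.69 in HU and 4.91 in control, and its change in HU against control was 1.16-fold (1.05 to 1.27). The level of this ratio depends on the deposited gene sizes, but its change does not. Per kilobase of the longest coding transcript, control had 16.9 for Atm and 9.48 for Atr. Npat, a coactivator of histone genes that starts 307 bases from Atm on the opposite strand, had a ratio of 0.982 (0.922 to 1.05), which likewise includes 1. Of the exonic bases of Atr, 5.78% are shared with 3 genes of the table, and the most counted of these, the antisense gene Gm16794, had 13 to 25 reads per library. The other genes that overlap a member or start within 1 kb of one had at most 15 reads in any library.

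Topbp1, Timeless, Tipin and Clspn were each above counting error and less than 25% higher in HU, whereas Rad9a, Rad17 and Rhno1, which act in the activation of ATR and are given further on, were below it. Topbp1, the activator of ATR, had 6373 reads in HU and 4218 in control, or 28.6 against 25.3 FPKM, at 1.13-fold (1.09 to 1.17). Timeless had 24.9 FPKM in HU and 20.7 in control, at 1.20-fold (1.14 to 1.28). Its partner Tipin, at 197 and 173 FPKM, was 1.13-fold higher (1.08 to 1.19). Clspn, outside the symbol list, had 3301 and 2040 reads, or 22.9 against 18.9 FPKM, at 1.21-fold (1.14 to 1.28). The ratios of the partners Timeless and Tipin overlapped in their intervals, and Tipin over Timeless changed by 0.943-fold in HU against control (0.876 to 1.01). Topbp1 over Atr, by contrast, was 1.32 times as high in HU as in control (1.20 to 1.44).

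**Figure D3:**
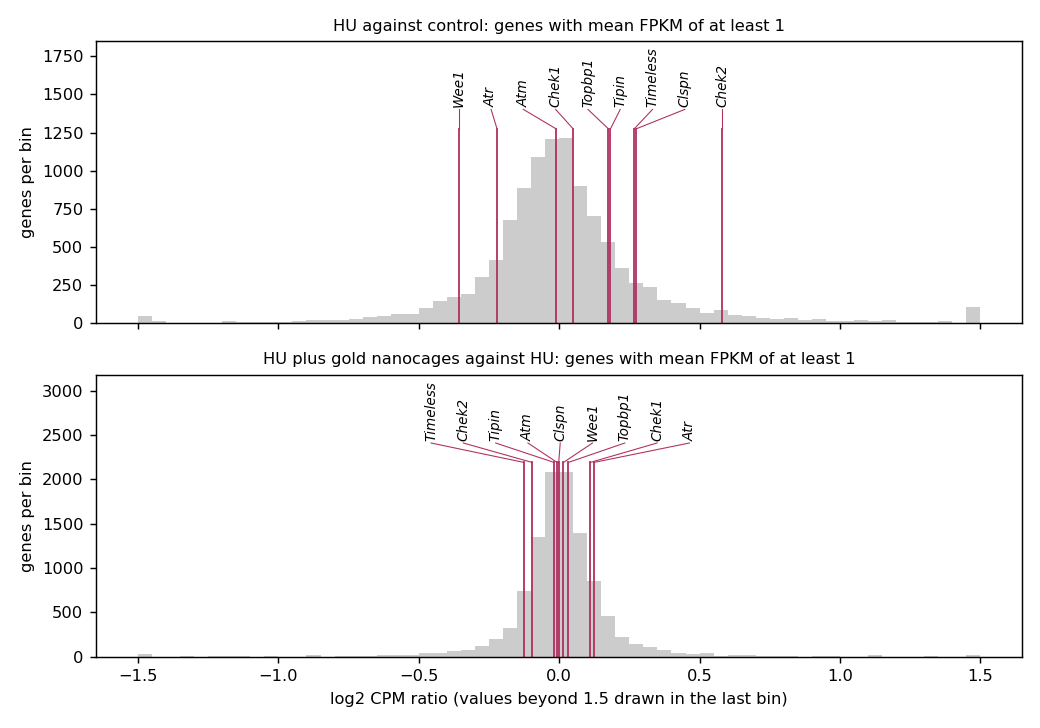
Histograms of the log2 CPM ratio of the 10849 genes with a mean of at least 1 FPKM, for HU against control above and HU plus gold nanocages against HU below, with the 8 measured checkpoint genes and Clspn as red lines. Chek2 sits at 0.58 in the upper panel, in the right tail, and in the lower panel the drawn checkpoint genes reach from -0.13 (Timeless) to 0.12 (Atr). Genes with no read in a library of the contrast are not drawn.

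Atrip rested on few reads. It had 25 reads in HU plus gold nanocages, 23 in HU and 13 in control, or 0.25, 0.21 and 0.16 FPKM. The ratio in HU against control was 1.32 (0.642 to 2.84), so even a difference of 2-fold upward lies within counting error. In GENCODE M21 all 1147 exonic bases of Trex1, which encodes a DNA exonuclease, lie inside the exons of Atrip on the same strand. They make up 16.0% of the exonic bases of Atrip there. The deposited size of Atrip is shorter, so the overlap in the authors' annotation is not known. That row of Trex1 is listed at 0 reads in every library, and no upper limit is given, since it has no base of its own in GENCODE M21. A second row with the symbol Trex1, whose identifier is not in GENCODE M21, had 32, 42 and 13 reads in the same order. Whether reads shared by these genes were dropped in the counting was not tested.

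**Figure D4:**
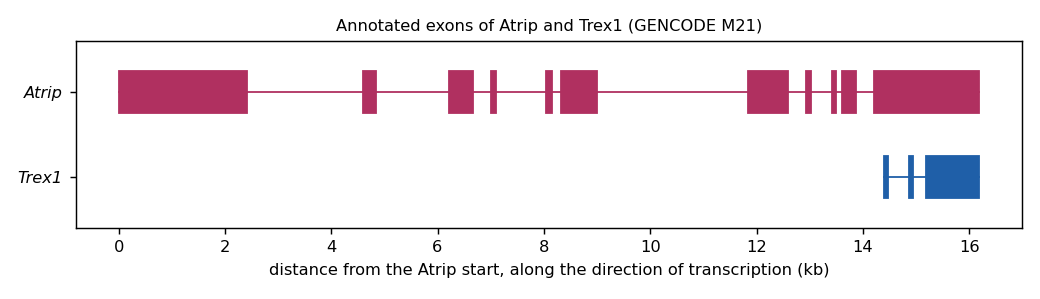
Exons (boxes) of Atrip and Trex1 in GENCODE M21 against the distance in kilobases from the Atrip start, in the direction of transcription. All boxes of Trex1 fall within the last exon of Atrip.

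Genes around the members were read from lists written for this purpose. Their counts in HU against control stand beside 18.7% of all genes above and 20.1% below counting error, and those of the ATM list and the list of related kinases lay near these shares. Unless said otherwise, up to 3 genes per list are singled out, those with the largest absolute log2 ratio in HU against control. Their ratios are thus the extremes of each list by choice. The clamp and loader list (Rad9a, Rad1, Hus1, Rad17 and the ATR activators Rhno1 and Etaa1) had 0 of 6 measured genes above and 3 below counting error in HU, with a median log2 ratio of -0.15. Rad9a, a subunit of the 9-1-1 clamp that recruits TOPBP1, was 1.35-fold lower (1.17 to 1.56), on 398 reads in HU and 402 in control. Rhno1 was 1.22-fold lower (1.09 to 1.36) and the clamp loader subunit Rad17 1.16-fold lower (1.05 to 1.29). The intervals of Rad1, Hus1 and Etaa1 included 1. In HU plus gold nanocages against control 1 of the 6 was above and 2 below, beside 19.6% and 20.1% of all genes. The median log2 ratio there was 0.05, and Rad17 was at 0.968 (0.874 to 1.07). The RPA list had 2 of 3 genes above, led by Rpa2 at 1.22-fold (1.14 to 1.30). Rpa1 was at 1.08 (1.03 to 1.12) and Rpa3 at 1.07 (0.922 to 1.249). Of 8 other fork genes, Clspn included, 5 were above and 1 below, with a median of 0.18. Mcm10, an initiation factor, was 1.26-fold higher (1.19 to 1.34), Cdc45, a subunit of the replicative helicase, 1.21-fold higher (1.13 to 1.30), and the helicase subunit gene Gins3 1.27-fold lower (1.13 to 1.41).

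On the ATM side, 2 of 10 break-sensing and chromatin genes lay above and 2 under counting error, with a median log2 ratio of -0.07. H2afx, the histone variant that these kinases phosphorylate at breaks, was 2.40-fold lower (2.29 to 2.53), at 89.2 FPKM in HU and 214 in control. Rnf168, a ubiquitin ligase of the same pathway, was 1.28-fold higher (1.17 to 1.40), and Rnf8 had a ratio of 0.863 (0.689 to 1.08). The kinases related to ATR and ATM, with their chaperone, lay close to control, with a median log2 ratio of -0.01 and 1 of 7 genes each above and below. Tti2, a chaperone subunit, was at 1.17 (1.01 to 1.36), Tti1 at 1.05 and Mtor at 0.942.

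Among downstream genes, several that drive entry into mitosis were lower in HU. Of 9 CDC25, CDK, cyclin and related genes 3 were above and 6 below counting error, with a median log2 ratio of -0.47, and 3 passed 1.5-fold downward, beside 3.12% of all genes. Cdc25b was 2.27-fold lower (2.09 to 2.48), at 11.4 FPKM in HU and 25.8 in control. Ccnb1, the cyclin B1 partner of CDK1, was 2.21-fold lower (2.10 to 2.33) and Cdc25c 1.90-fold lower (1.65 to 2.20). Cdc25a, named outside that rule after its values were seen, was the phosphatase on the other side, at 1.31-fold higher (1.23 to 1.40). The list of recovery from the checkpoint had 1 of 8 genes above and 5 below. Its lowest ratio was that of the kinase Plk1, at 13.0 FPKM in HU and 64.6 in control, followed by the kinase Aurka at 27.7 and 70.1 FPKM. Their cofactor Bora was 2.18-fold lower (2.00 to 2.37). Ppm1d, the phosphatase that ends checkpoint signalling, was the gene above, at 1.99-fold (1.82 to 2.19). It too was named outside the rule, after its values were seen. On the p53 list of 4 genes, Mdm2 and Cdkn1a were 6.59-fold and 6.54-fold higher. E2f1, listed with them, was 1.43-fold higher (1.33 to 1.55). Trp53 itself, looked up outside the rule for named genes, was at 0.991 (0.953 to 1.03).

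**Figure D5:**
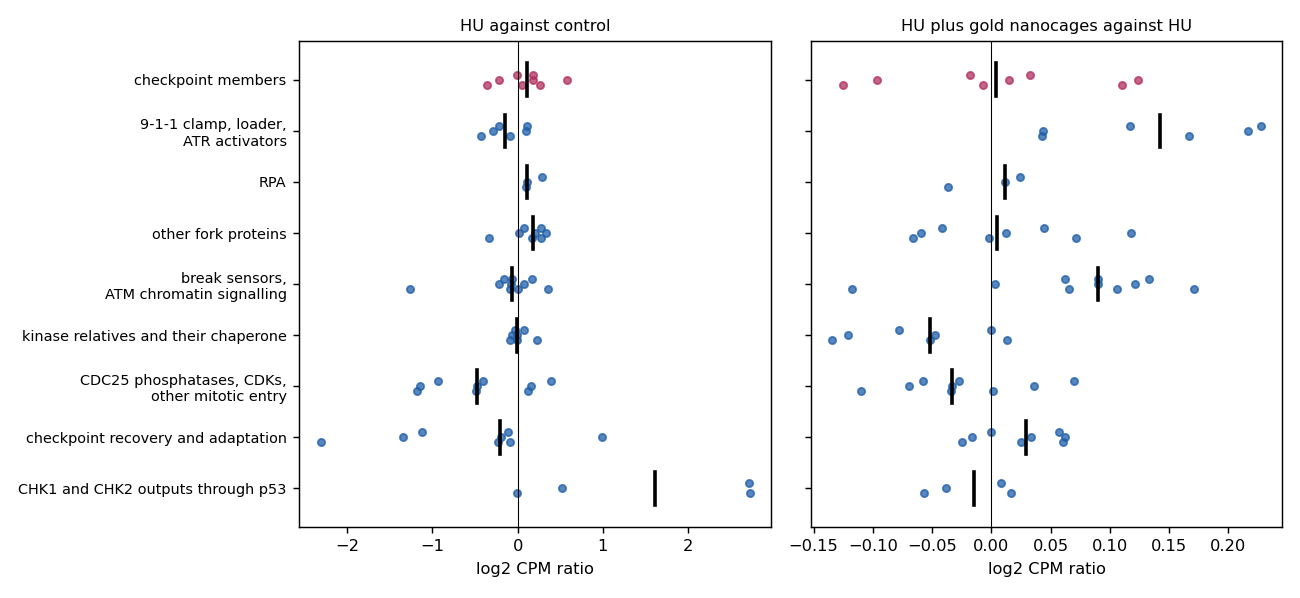
Log2 CPM ratios of the measured members (red) and of the genes of each list (blue), with the median as a black bar, for HU against control on the left and HU plus gold nanocages against HU on the right, whose axis covers a narrower range. The members' median is 0.11 on the left, between -0.47 for the mitotic entry list and 1.61 for the p53 list of 4 genes, and 0.00 on the right. The p53 list holds Mdm2, Cdkn1a, E2f1 and Trp53, with log2 ratios from -0.01 (Trp53) to 2.72 (Mdm2) on the left.

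HU plus gold nanocages against HU asked what the nanocages add. The ratios of the 8 members ran from 0.917 to 1.09. No member was 25% higher or 20% lower, let alone 1.5-fold apart. Among all genes 3.74% passed the smaller threshold upward and 3.31% downward, and 1.36% and 1.32% passed 1.5-fold. By the counting interval 2 of 8 members were above and 1 below, beside 8.35% and 7.78% of all genes, and the median log2 ratio was 0.00 for members and for all genes.

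The member above counting error by most was Atr, at 1338 reads with nanocages and 1321 with HU alone, or 3.05 against 2.80 FPKM, a ratio of 1.09 (1.01 to 1.18). Chek1 was at 16.5 FPKM with nanocages and 15.3 with HU alone, at 1.08 (1.00 to 1.16), and its interval included 1 under each of the other scalings tried. Timeless was lower, at 22.8 FPKM with nanocages against 24.9 with HU alone, 1.09-fold (1.03 to 1.15). Its partner Tipin was at 0.988 (0.948 to 1.03), and Tipin over Timeless was 1.08 times as high with nanocages as with HU alone (1.01 to 1.15). Chek2 was at 0.935 (0.832 to 1.05), Wee1 at 1.01 (0.899 to 1.14), Atm at 0.995 (0.947 to 1.05), Topbp1 at 1.02 (0.987 to 1.06) and Clspn at 0.999 (0.951 to 1.05). Their intervals all include 1 and reach neither 25% higher nor 20% lower, as far as counting error goes. Of the clamp and loader list 4 of 6 genes were above counting error and none below, beside 8.35% and 7.78% of all genes, with a median log2 ratio of 0.14, and Rad9a was at 1.16 (1.01 to 1.34). The 9 mitotic entry genes all had intervals that include 1.

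HU plus gold nanocages against control shares the control library with the first contrast. In it 1 of 8 members was at least 25% higher (Chek2) and 1 at least 20% lower (Wee1), beside 10.9% and 8.58% of all genes. None was 1.5-fold apart, beside 5.28% higher and 3.24% lower. By the counting interval 5 of 8 were above and 1 below, beside 19.6% and 20.1% of all genes, and the median log2 ratio was 0.15 against 0.00 for all genes. Chek1 was at 1.12-fold (1.03 to 1.21) and Atr at 0.935 (0.863 to 1.01) against control with nanocages, where with HU alone they were at 1.04 and 0.858. Timeless was at 1.10 (1.04 to 1.17), Tipin at 1.12 (1.07 to 1.17), Topbp1 at 1.15 (1.11 to 1.20) and Clspn at 1.21 (1.14 to 1.28). Atm again had a ratio whose interval includes 1, at 0.987 (0.936 to 1.04).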

How the data were processed

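Bulk RNA of 3 cultures was sequenced in paired ends. The authors deposited 1 table with whole-number counts per gene, not normalized. The deposited FPKM values equal the count over the gene size and over the library total for 100% of genes (tolerance 0.0051). The exonic gene size in bases is another deposited column, per the file headers. The submitters' processing notes name HISAT2 2.0.1 and HTSeq 0.6.1 among the tools, and mm10. What role each had, the annotation and the strand setting were not given in the sources used here.

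Each symbol was represented by its identifier with the most reads. Ratios are of CPM, with Clopper-Pearson 95% intervals (scipy 1.17.1, tested on simulated data). Reads carry no molecular identifiers, so intervals and limits cover counting error only, and 1 read stood for 0.0499 to 0.0667 CPM. With 1 library per group no p-value was computed. Scaling alternatives used edgeR 4.0.16 and DESeq2 1.42.0. Coordinates came from GENCODE M21 (98.0% of identifiers) and promoter windows from RefSeq on GRCm38.p6, where Wee1 and Tipin had no entry. The Timeless and Chek1 windows lie at RefSeq starts inside the GENCODE genes and do not hold the GENCODE starts. For Chek2, Topbp1, Atm and Clspn the RefSeq start also lies inside the GENCODE gene, but the window holds the GENCODE start. Matches and distances to a start thus hold for the RefSeq starts only. Members and lists were chosen with earlier results of these data known. Named list genes were the up to 3 measured genes per list with the largest absolute log2 ratio in HU against control, and genes that overlap a member or start within 1 kb of it were named too. Cdc25a, Ppm1d, Trp53 and the markers Lyz2 and Mrc1 were named outside this rule.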

Additional observations from a re-analysis of the deposited data

How the results depend on the processing

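No paired analysis was possible because each group is 1 library, and for the same reason no library could be left out. Counts of members moved with the threshold. At 1.5-fold 0 members were apart in any contrast. At 25% higher or 20% lower these were 1 higher and 1 lower in HU against control and in HU plus gold nanocages against control. By the counting interval they were 4 higher and 2 lower in HU against control. Between HU plus gold nanocages and HU they were 2 higher and 1 lower, and between HU plus gold nanocages and control 5 higher and 1 lower. At 2-fold no member was apart. With scaling by the upper quartile of genes with reads, which adds 0.08 to every log2 ratio of HU against control, 1 member passed 1.5-fold, Chek2 at 1.58. Without the filter on low values 1 did in HU plus gold nanocages against control, Atrip, on 25 and 13 reads.

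Of 120 ratios of single genes recomputed under 4 other settings, 115 stayed inside their counting interval and 5 left it, all under the upper quartile, and none that excluded 1 changed direction. Chek1 in HU against control was above counting error only under the upper quartile (1.09, 1.01 to 1.19). Its ratio of HU plus gold nanocages against HU included 1 under all 3 other scalings, at 1.08. The medians moved by less than 0.1 on the log2 scale; that of HU plus gold nanocages against HU, near 0, took either sign. Adding Clspn, chosen after seeing the data, gave a median of 0.18 in HU against control. Depth limits Atrip most, at 13 to 25 reads per library.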
